A study of Saccharomyces cerevisiae with 83 samples.

Results

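The transcripts described here are the unspliced forms (pre-mRNA, which still holds the intron) of intron-containing genes of budding yeast, Saccharomyces cerevisiae, other than those of ribosomal proteins. The genes were the loci with both a pre-mRNA and an mRNA entry in the authors' transcript list whose standard name does not begin with RPL or RPS. NMD2, which was deleted in some strains, and 9 meiotic loci were left out. The choice gave 186 of the 343 pre-mRNA entries, in a list of 6952 entries. Another 100 of the 296 loci with both entries were ribosomal protein genes, and 47 pre-mRNA entries had no mRNA entry. RPP1B, a stalk protein of the large ribosomal subunit, stayed among the 186 because of its name.

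Introns are removed in the nucleus by the spliceosome. A pre-mRNA that escapes to the cytoplasm is translated into its intron and usually meets an early stop codon, which makes it a substrate of nonsense-mediated mRNA decay (NMD). NMD needs Upf1, an RNA helicase, and its partners Upf2 (gene NMD2) and Upf3. Some yeast pre-mRNAs leave this route: the intron of YRA1 takes part in the autoregulation of its gene, and both forms of PTC7 are translated into proteins of different location.

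All cells were of the W303 background. The C experiment had 4 groups of 3 RNA libraries. DE572AA-FLAG was strain HFY871 (upf1::HIS3) with a plasmid, pRS425-DE572AA-FLAG, for a tagged Upf1 whose ATPase is inactivated. The strain labelled upf2Δ was HFY467 (nmd2::HIS3, upf1::URA3) with pRS425-UPF1-FLAG. Upf1-FLAG was HFY871 (upf1::HIS3) with pRS425-UPF1-FLAG, and WT-C was the wild type HFY114 with the empty plasmid pRS425. All of these cultures received cycloheximide (CHX), an inhibitor of elongation, at 100 µg/ml. The N experiment had 9 groups of 2 RNA libraries. FLAG-Upf1-Upf2-Upf3, with CHX only, was HFY871 (upf1::HIS3) carrying pG1-FLAG-UPF1, pRS425-UPF2 and YEplac195-TPI-UPF3. FLAG-Upf1 was HFY871 (upf1::HIS3) with pG1-FLAG-UPF1, FLAG-Upf2 was HFY115 (nmd2::HIS3) with YEplac112-FLAG-UPF2, and FLAG-Upf3 was HFY861 (upf3::HIS3) with YEplac195-TPI-FLAG-UPF3. WT-N was HFY114 with YEplac112, and these last 4 strains were each harvested with CHX and without it (noCHX). Ribosomal RNA was depleted with 1 kit in the C experiment and with another in the N experiment, so the tag position and the kit cannot be told apart and no test was made across them. Labels tell replicates apart but do not say whether they came from separate cultures, so p-values measure only the spread between these samples.

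Total expected counts per RNA library were 92571804 to 164141441 in the C experiment and 49079265 to 152961740 in the N experiment. The plasmid genes were high where the labels place them: UPF1 mRNA was at 3392 to 4328 FPKM in DE572AA-FLAG and 7175 to 7469 FPKM in Upf1-FLAG, against 117.6 to 123.7 FPKM in WT-C. The mRNA entry of NMD2, the gene of Upf2, went against the label of the strain labelled upf2Δ, at 348.3, 357.5 and 348.4 FPKM there against 71.1, 61.7 and 58.0 FPKM in Upf1-FLAG. The NMD2 pre-mRNA entry was at 0, 0 and 0 FPKM in the strain labelled upf2Δ, against 1.53, 2.54 and 1.44 FPKM in Upf1-FLAG, and every direction given for it rests on that label. The overexpressed gene in the FLAG-Upf2 libraries was NMD2, at 2226 to 4498 FPKM, against 45.4 to 62.3 FPKM in WT-N.

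The level of each entry is given in FPKM, fragments scaled to the transcript's length and the library's depth, and the unspliced share of a gene is its pre-mRNA FPKM as a percent of pre-mRNA plus mRNA FPKM. The authors' counting program divides exon reads between both entries of a gene according to the reads that tell them apart. Intron lengths, which could be derived for 158 of the 186 genes, ran from 58 to 1002 nt with a median of 103.5 nt, so a short intron decides the split of a whole gene's reads. Changes of the ratio of pre-mRNA to mRNA were tested with edgeR's quasi-likelihood test and adjusted by Benjamini-Hochberg over all loci with both entries, ribosomal protein genes included. A change is called where the adjusted p is under 0.05.

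In wild-type cells the unspliced share spanned the whole range. Of 180 genes with at least 20 counts in each WT-C library, 9 had a mean share under 1% and 61 under 5%, 44 were over 50% and 23 over 90%, and the median was 9.89%. ACT1 (actin) had shares of 0.555%, 0.547% and 0.586% in WT-C. ASC1, the yeast ortholog of the ribosome-bound protein RACK1, had 0.74%, 0.767% and 0.825%, and the translation elongation factor gene TEF4 had 1.01%, 0.92% and 0.919%. These are abundant housekeeping transcripts, and their 3 libraries differed little. At the other end, 13 genes had no count on the mRNA entry in any WT-C library, among them BUD25, ATG44, YRF1-3, MRX20 and YHL050C. All 13 were among the 23 genes over 90%. Ribosome footprints of the C experiment (below) did fall on the mRNA entries of ATG44, MRX20 and YLR202C, which belong to these 13. The part of the annotation and of the division of reads between entries was not tested, so the shares of the 13 genes are uncertain. YRF1-3, YHL050C and their relatives lie in repeated Y' elements near chromosome ends, where reads are shared between copies, so their values are uncertain.

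Genes with a known use of the unspliced form, and genes with a snoRNA in the intron, were spread over the range of shares. HAC1, the transcription factor of the unfolded protein response, is spliced outside the spliceosome under stress, and its share in WT-C was 99.7%, 99.7% and 99.4%. GCR1, the activator of glycolytic genes, had 98.46%, 99.96% and 99.93%. NOG2, a ribosome assembly GTPase with a snoRNA in its intron, had 97.1%, 97.8% and 98.0%. The mean share in WT-C was 56.0% for PTC7, 26.7% for MTR2, 15.9% for both SUS1 and YRA1, and 13.6% for SRC1. It was 2.81% for DBP2, and among the other genes with a snoRNA in the intron it was 3.65% for EFB1, 2.01% for IMD4, 0.948% for TEF4 and 0.777% for ASC1. Whether reads of the snoRNA itself counted toward the pre-mRNA entry, in NOG2 or these genes, was not tested, so their shares are uncertain. Introns of 200 nt or less (125 genes) had a median share of 9.03%, and longer introns (33 genes) had 3.65%. Across these genes, which share libraries and are not independent, Spearman's rho between intron length and share was -0.19.

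Summed over all 186 genes, the unspliced share stood in order across the C strains. It was 16.1%, 16.6% and 16.4% in DE572AA-FLAG, 15.7%, 15.5% and 16.6% in the strain labelled upf2Δ, 14.4%, 14.8% and 14.7% in Upf1-FLAG, and 12.8%, 13.3% and 13.2% in WT-C. All DE572AA-FLAG and upf2Δ-labelled libraries were above all Upf1-FLAG libraries, and these above all WT-C libraries, while the first pair of groups overlapped. Without HAC1, the pre-mRNA with the highest FPKM in all 12 C libraries, the order was the same, at 14.06%, 14.06% and 13.97% in DE572AA-FLAG, 13.6%, 13.3% and 14.3% in the strain labelled upf2Δ, 12.3%, 12.4% and 12.3% in Upf1-FLAG, and 11.01%, 11.38% and 11.24% in WT-C. Genes whose pre-mRNA entry was at 0 numbered 14 to 26 per DE572AA-FLAG library and 6 to 27 in the strain labelled upf2Δ, against 9, 17 and 41 in Upf1-FLAG and 5 or 6 in WT-C. The part of these zeros in the summed share was not tested. Summed over the 100 ribosomal protein genes, the share was 6.8%, 8.1% and 6.5% in DE572AA-FLAG and 7.3%, 6.5% and 7.1% in the strain labelled upf2Δ. It was 6.1%, 5.7% and 6.5% in Upf1-FLAG and 4.5%, 4.8% and 4.7% in WT-C, so WT-C was lowest there too. For the genes described here, the median share per library did not stand in the order of the summed share. It was 11.08%, 11.02% and 12.62% in DE572AA-FLAG and 11.84%, 13.62% and 14.07% in the strain labelled upf2Δ. It was 10.61%, 9.63% and 10.29% in Upf1-FLAG and 10.4%, 10.21% and 11.04% in WT-C. By the median, both Upf1-FLAG and DE572AA-FLAG overlapped with WT-C. In bulk RNA, a change in the number of cells of one kind and a change in RNA per cell cannot be told apart.

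**Figure D1:**
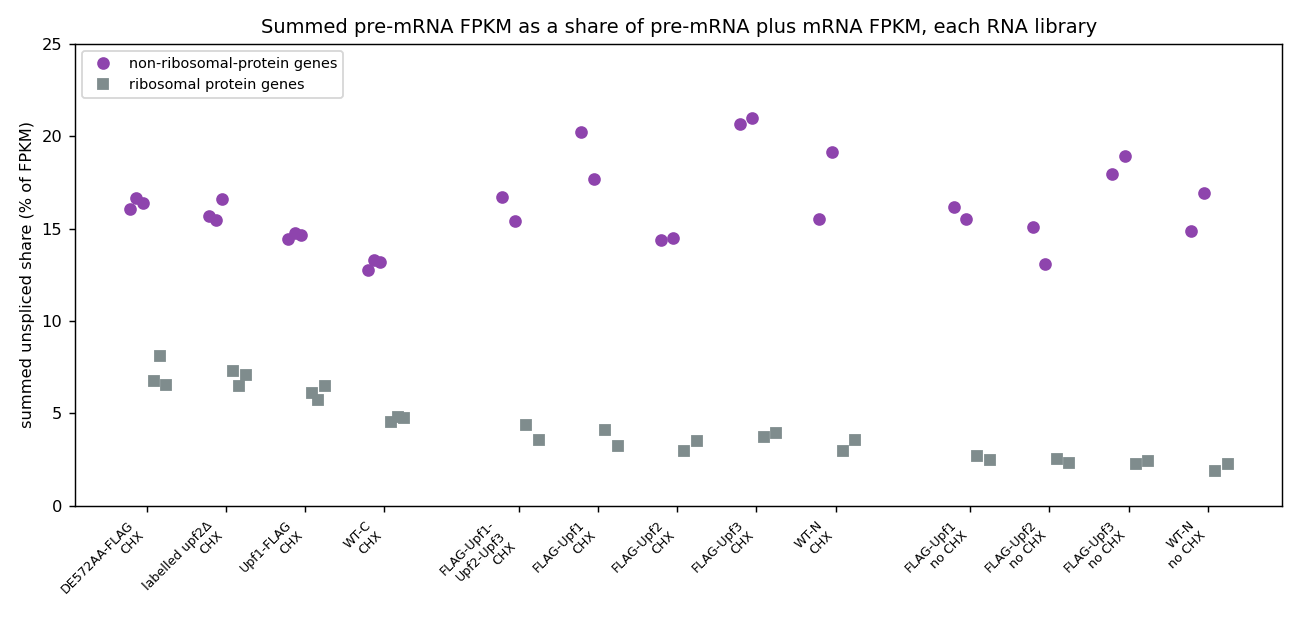
Summed pre-mRNA FPKM as a percent of summed pre-mRNA plus mRNA FPKM (y axis) in each of the 30 RNA libraries (points, grouped by strain and treatment on the x axis), for the 186 genes and for 100 ribosomal protein genes. The 3 DE572AA-FLAG libraries lie between 16.1% and 16.6% and the 3 WT-C libraries between 12.8% and 13.3%; FLAG-Upf3 with CHX lies at 20.7% and 21.0%.

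Against Upf1-FLAG, the Upf1 ATPase mutant changed the ratio of few of these genes. Of 164 genes tested, 2 rose (YRA1 and PFY1) and 1 fell (CQD1), where 4.06% of all 271 loci were called (3.69% higher and 0.369% lower). By unadjusted p under 0.05, 16 genes passed, 10 higher and 6 lower. The median log2 change was 0.28, with 105 genes positive, and that over all loci was 0.29. Among the 100 ribosomal protein genes, 8 rose and none fell. Without DE572AA-FLAG replicate 2 the count was 5, and with only these 2 groups in the fit it was 0.

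YRA1 encodes an mRNA export factor and lies on chromosome IV from 1236558 to 1238004 (R64), with an intron of 766 nt. Its unspliced share was 32.3%, 22.8% and 23.8% in DE572AA-FLAG, 19.1%, 16.4% and 17.2% in the strain labelled upf2Δ, 15.9%, 17.3% and 16.3% in Upf1-FLAG, and 16.6%, 15.3% and 15.8% in WT-C. The DE572AA-FLAG libraries were above all others, with replicate 1 the highest. Both entries contributed: the pre-mRNA was at 63.4, 39.8 and 49.2 FPKM in DE572AA-FLAG against 32.3, 39.7 and 35.0 FPKM in Upf1-FLAG, and the mRNA at 132.9, 134.5 and 157.3 FPKM against 171.1, 189.0 and 179.6 FPKM. The ratio rose by 0.84 ± 0.19 (log2 change ± SE, adjusted p = 0.0406, edgeR's quasi-likelihood test) against Upf1-FLAG and by 0.90 ± 0.19 (adjusted p = 0.0073, same edgeR test) against WT-C. Without DE572AA-FLAG replicate 3 or any of the Upf1-FLAG replicates the first call was lost, with an adjusted p of up to 0.115 in edgeR, while the second stood in all 6 fits that left out a library. With only the 2 groups in the fit, the adjusted p against Upf1-FLAG was 0.282 (edgeR).

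PFY1 encodes profilin, an actin-binding protein, and lies on chromosome XV from 552298 to 552887 (R64), with an intron of 209 nt. Its unspliced share was 3.85%, 5.07% and 5.35% in DE572AA-FLAG, 4.64%, 3.98% and 5.0% in the strain labelled upf2Δ, 1.44%, 2.76% and 2.64% in Upf1-FLAG, and 2.15%, 2.28% and 2.12% in WT-C. All libraries of the first pair of groups were above all of the second pair. The log2 change was 1.14 ± 0.25 (adjusted p = 0.0406, edgeR's quasi-likelihood test) for DE572AA-FLAG against Upf1-FLAG, and 1.15 ± 0.25 (adjusted p = 0.00815, edgeR) against WT-C. In the strain labelled upf2Δ against Upf1-FLAG it was 1.08 ± 0.25, which missed the threshold (adjusted p = 0.0692, edgeR). Both comparisons share the Upf1-FLAG libraries. The call against Upf1-FLAG was lost without DE572AA-FLAG replicate 2 or 3 or Upf1-FLAG replicate 3, with an adjusted p of up to 0.0945 in edgeR, and was 0.282 (edgeR) with only the 2 groups in the fit.

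CQD1, a mitochondrial protein of coenzyme Q distribution, lies on chromosome XVI from 345264 to 347389 (R64). Its pre-mRNA entry had 0, 0 and 0 counts in DE572AA-FLAG, against 178, 477 and 40 counts in Upf1-FLAG and 533, 253 and 579 counts in WT-C. The mRNA entry had 2335 to 3960 counts in DE572AA-FLAG, so the gene itself was expressed. With a floor of 3 counts per library, the pre-mRNA was at least 66.6-fold below the Upf1-FLAG mean. It was at least 106-fold below the WT-C mean. Against the lowest Upf1-FLAG library, at 40 counts, the bound would be smaller. These bounds cover counting error only, not the division of exon reads between the entries. The fall of the ratio was called in both comparisons (adjusted p = 0.00971 and 0.00182, edgeR's quasi-likelihood test), also without any single library; with only the 2 groups in the fit, the adjusted p against Upf1-FLAG was 0.181 (edgeR). In the strain labelled upf2Δ, replicates 1 to 3 had 14, 120 and 200 counts.

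Against the wild type, the ATPase mutant had more changes. Of 164 genes tested, 13 rose and 3 fell, where 22.1% of all 271 loci were called (21.0% higher and 1.11% lower), and 44 of 100 ribosomal protein genes rose with none falling. The median log2 change of the 164 genes was 0.14, with 94 positive, and that of all loci was 0.41. The 13 were the genes of nuclear export and RNA processing YRA1, HRB1 and MTR2, the transcription and chromatin genes IWR1 and NHP6B, the actin regulator PFY1, the secretory genes SEC14 and ARF2, the respiratory chain gene QCR9, the stalk protein gene RPP1B, the 14-3-3 gene BMH2, the nucleotide hydrolase gene HNT1 and the aminopeptidase gene APE2. The 3 were CQD1, GCR1 and ERD2. Of the 16 calls, 9 stood in every fit without 1 library: BMH2, GCR1, HNT1, HRB1, MTR2, NHP6B, PFY1, CQD1 and YRA1. Without WT-C replicate 2 the count was 10.

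HRB1, a shuttling mRNA-binding protein with an intron of 342 nt, had an unspliced share of 46.9%, 44.9% and 44.9% in DE572AA-FLAG, 34.2%, 38.4% and 45.8% in the strain labelled upf2Δ, 32.6%, 34.5% and 33.6% in Upf1-FLAG, and 21.2%, 25.7% and 18.9% in WT-C. The WT-C libraries were below all others, and DE572AA-FLAG was above Upf1-FLAG without overlap. The log2 change against WT-C was 1.59 ± 0.24 (adjusted p = 0.00177, edgeR's quasi-likelihood test). NHP6B, a high-mobility-group chromatin protein with an intron of 357 nt, had 28.8%, 27.6% and 25.1% in DE572AA-FLAG, 23.3%, 21.7% and 24.6% in the strain labelled upf2Δ, 20.03%, 13.64% and 20.03% in Upf1-FLAG, and 9.92%, 10.4% and 7.98% in WT-C. These 4 groups did not overlap. The change against WT-C was 1.85 ± 0.27 (adjusted p = 0.00166, edgeR).

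MTR2, a subunit of the mRNA export receptor with Mex67, had a share of 53.3%, 60.6% and 43.6% in DE572AA-FLAG, against 29.3%, 27.8% and 23.1% in WT-C (log2 change 1.61 ± 0.31, adjusted p = 0.00484, edgeR's quasi-likelihood test). Upf1-FLAG had 44.1%, 41.4% and 45.4%, above WT-C and overlapping with DE572AA-FLAG. IWR1, an import factor of RNA polymerase II, was mostly unspliced in all strains of the C experiment. Its share was 90.8%, 93.9% and 89.2% in DE572AA-FLAG, 91.5%, 97.0% and 88.2% in the strain labelled upf2Δ, 86.0%, 86.8% and 85.3% in Upf1-FLAG, and 75.5%, 70.7% and 70.6% in WT-C. The DE572AA-FLAG libraries were above the Upf1-FLAG ones and these above WT-C. The change against WT-C was 2.04 ± 0.52 (adjusted p = 0.0178, edgeR), and without DE572AA-FLAG replicate 2 or WT-C replicate 2 or 3 the adjusted p went up to 0.0663.

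**Figure D2:**
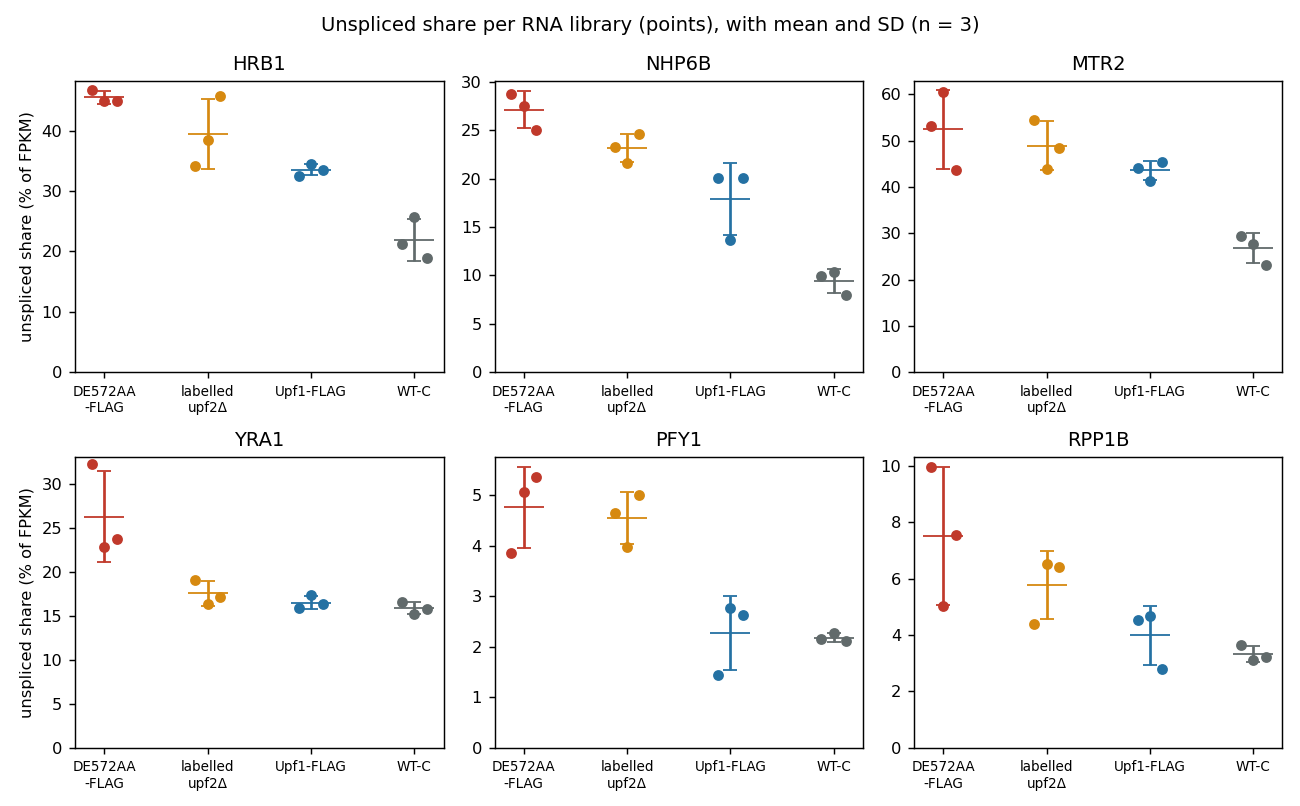
Unspliced share (% of FPKM, y axis) of 6 genes in the 4 strains of the C experiment; points are the 3 RNA libraries, and bars give the mean and SD. In HRB1, NHP6B and MTR2 every WT-C library is below every other library, whereas in YRA1 the DE572AA-FLAG libraries, at 22.8% to 32.3%, stand above the rest, and in PFY1 DE572AA-FLAG and the strain labelled upf2Δ stand above Upf1-FLAG and WT-C.

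The other risers had smaller changes or lower shares. HNT1 had 17.8%, 17.1% and 16.7% in DE572AA-FLAG against 9.51%, 9.02% and 10.2% in WT-C, and BMH2 had 5.68%, 4.796% and 4.59% against 3.18%, 2.91% and 3.25%. These groups did not overlap, and both changes stood without any single library. RPP1B, at 9.95%, 5.03% and 7.55% in DE572AA-FLAG against 3.66%, 3.11% and 3.23% in WT-C, lost its call without DE572AA-FLAG replicate 1 or 3 or WT-C replicate 2 or 3. ARF2, an ADP-ribosylation factor with a close paralog, lost it without WT-C replicate 2, SEC14, a phosphatidylinositol transfer protein, without WT-C replicate 1, and APE2 without WT-C replicate 1 or 2. QCR9, a subunit of respiratory complex III, kept its call only without DE572AA-FLAG replicate 2.

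The 2 other falls had different sources. ERD2, the receptor that retains proteins in the endoplasmic reticulum, had shares of 12.8%, 27.6% and 11.8% in DE572AA-FLAG against 40.5%, 48.3% and 42.6% in WT-C. Its groups did not overlap, but the call was lost in 5 of 6 fits that left out a library; it was kept without DE572AA-FLAG replicate 2, the highest of its group. In GCR1 the pre-mRNA level was not called different (log2 change 0.01 ± 0.06), at 83.8, 78.0 and 80.6 FPKM in DE572AA-FLAG against 75.8, 72.2 and 74.3 FPKM in WT-C. The mRNA entry had 3383, 3574 and 8239 counts in DE572AA-FLAG, against 473, 10 and 18 counts in WT-C, and these few counts set the change of -7.17 ± 1.36 (adjusted p = 0.00477, edgeR's quasi-likelihood test).

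The strain labelled upf2Δ had no gene called against Upf1-FLAG among the 164 tested, where 1.48% of all loci were called (1.11% higher and 0.369% lower). By unadjusted p under 0.05, 9 genes passed in edgeR, 6 higher and 3 lower, and limma on the log2 ratio called 0 as well. Without Upf1-FLAG replicate 3, 1 gene was called. The median log2 change was 0.33 with 112 positive, and over all loci it was 0.26. Upf1-FLAG against WT-C had 1 call, the fall of GCR1 by 7.33 ± 1.36 on the log2 scale (adjusted p = 0.0153, edgeR's quasi-likelihood test), where 3.69% of all loci were called (3.32% higher and 0.369% lower). That call was lost without Upf1-FLAG replicate 3 or WT-C replicate 2 or 3. The count was 2 without any 1 of the Upf1-FLAG replicates and 0 without WT-C replicate 2 or 3. The median was -0.05 among these genes and 0.29 among ribosomal protein genes, of which 9 rose.

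**Figure D3:**
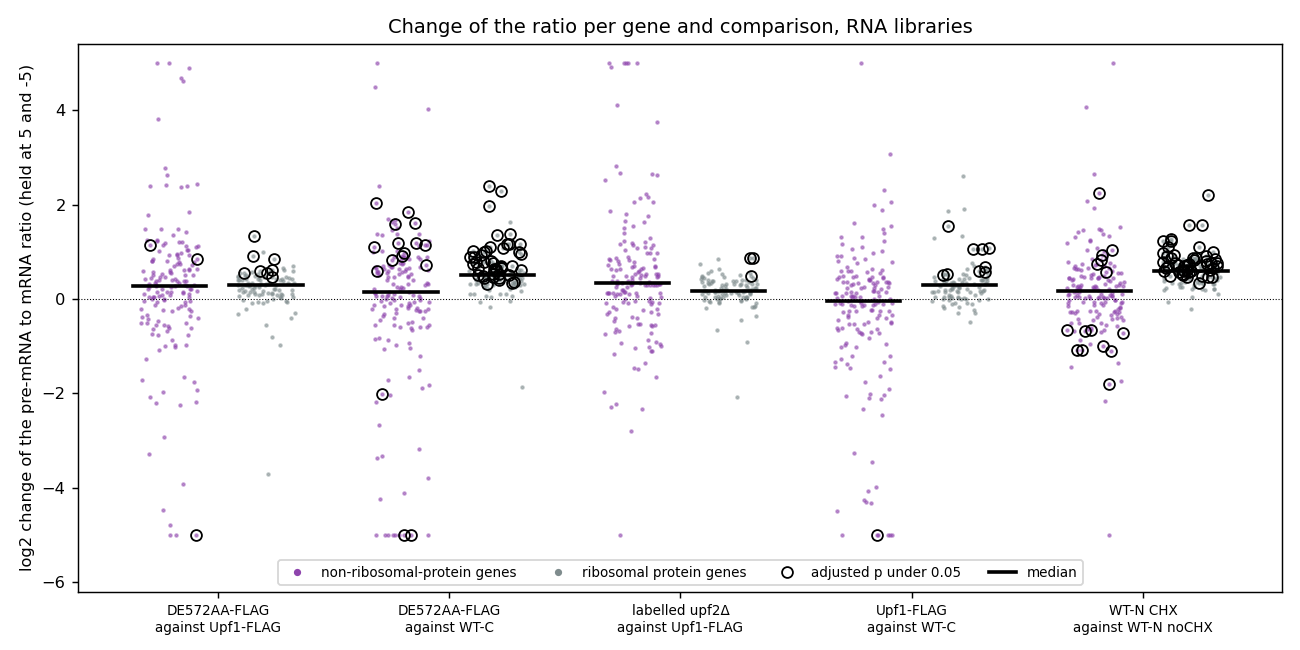
Log2 change of the ratio of pre-mRNA to mRNA (y axis, held at 5 and -5) in 5 comparisons (x axis) for each gene tested, with the genes described here beside the ribosomal protein genes; rings mark an adjusted p under 0.05 and bars the medians. Against WT-C, 13 genes described here rose and 3 fell in DE572AA-FLAG, beside 44 ribosomal protein genes that rose, and the spread between genes is wider among the genes described here.

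The gene groups moved in few members. As background, 22.1% of all 271 loci were called in DE572AA-FLAG against WT-C (21.0% higher) and 4.06% against Upf1-FLAG, so a few calls in a group are not a result about that group. Of 17 genes of splicing, RNA processing and export, 3 rose in DE572AA-FLAG against WT-C (median log2 change 0.22) and 1 against Upf1-FLAG (median 0.52). The largest changes against Upf1-FLAG in this group did not pass: the splicing factor gene YSF3 was at 2.37 ± 2.19, LSM7, a gene of an Sm-like protein, at 1.25 ± 1.82 and the U1 snRNP gene MUD1 at -1.0 ± 0.83. Of 24 genes of vesicle traffic and secretion, a list without ARF2, 1 rose (SEC14) and 1 fell (ERD2) against WT-C, and none passed against Upf1-FLAG. Of 18 genes of transcription, chromatin and DNA, 2 rose and 1 fell against WT-C. In both groups the widest estimates had standard errors too large for a call, as in the endosomal sorting gene VPS29, at -6.46 ± 3.58 against Upf1-FLAG.

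Of 16 cytoskeleton and division genes, PFY1 alone was called, in both comparisons of the mutant, and the actin-related gene ARP2 was at 1.18 ± 0.72 against Upf1-FLAG. Of 13 genes of mitochondria and the vacuolar ATPase, a list without CQD1, QCR9 was called against WT-C, and MRPL44, a mitochondrial ribosomal protein, was at 6.82 ± 2.58 against Upf1-FLAG without passing. None of the 10 genes of ubiquitin and the proteasome was called; UBC9, the SUMO-conjugating enzyme, was at -4.78 ± 5.13 and UBC8 at 4.68 ± 3.47. None of the 4 translation factor genes was called, and their shares stayed low: TEF4 had 1.07%, 1.08% and 0.915% in DE572AA-FLAG, and ASC1 had 1.07%, 1.09% and 1.03%.

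Genes whose introns hold a snoRNA are ASC1, EFB1 (a translation elongation factor), TEF4, IMD4 (an enzyme of guanine nucleotide synthesis) and NOG2. None of these 5 passed in the ratio in the C experiment, and the median log2 change of the ratio was -0.01 in DE572AA-FLAG against Upf1-FLAG and 0.46 against WT-C. Pre-mRNA levels were called in NOG2 and ASC1. The part of snoRNA reads in these levels was not tested. NOG2 pre-mRNA was at 224.2, 217.1 and 237.0 FPKM in DE572AA-FLAG, against 267.6, 284.5 and 276.0 FPKM in WT-C (log2 change -0.4 ± 0.1, adjusted p = 0.00348, edgeR), and this call stood without any single library. Its call against Upf1-FLAG (-0.29 ± 0.1, adjusted p = 0.042, edgeR) stood in 1 of 6 such fits. ASC1 pre-mRNA was at 20.72, 17.91 and 21.15 FPKM in the strain labelled upf2Δ, against 25.87, 34.67 and 21.65 FPKM in Upf1-FLAG (-0.55 ± 0.13, adjusted p = 0.00868, edgeR), a call that stood without any single library. The ASC1 calls in DE572AA-FLAG against Upf1-FLAG (-0.41 ± 0.13) and in Upf1-FLAG against WT-C (0.42 ± 0.13) each stood in 3 of 6 such fits, and both were lost without Upf1-FLAG replicate 2. Among 7 genes whose unspliced form is known to be used or regulated, YRA1 and MTR2 rose and GCR1 fell in DE572AA-FLAG against WT-C. DBP2, a DEAD-box helicase whose long intron serves autoregulation, had a share of 1.95%, 2.53% and 1.66% in DE572AA-FLAG against 2.63%, 3.07% and 2.73% in WT-C (log2 change -0.49 ± 0.25, not passed). SUS1, a chromatin and mRNA export factor, was at 0.32 ± 0.57, SRC1, an inner nuclear membrane protein with alternative splice forms, at -0.36 ± 0.33, and PTC7, a protein phosphatase, at -0.15 ± 0.47.

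The level of the pre-mRNA itself was tested per transcript over all entries with edgeR's quasi-likelihood test. Of 181 genes tested, 15 rose and 6 fell in DE572AA-FLAG against Upf1-FLAG, where 26.5% of all 6739 transcripts were called; without Upf1-FLAG replicate 2 the count was 12. Against WT-C, 29 rose and 12 fell in DE572AA-FLAG, where 53.9% of all were called. The strain labelled upf2Δ had 14 higher and 4 lower than Upf1-FLAG, where 22.8% of all were called, and Upf1-FLAG had 21 higher and 4 lower than WT-C, where 30.3% of all were called. This last count was 15, 14 and 15 without WT-C replicates 1, 2 and 3. The shares of these genes called were below the background in all 4 comparisons. Their pre-mRNA entries together held 0.37% to 0.46% of the counts of a C library, and the part of low counts in these shares was not tested. Their median log2 changes in the 4 comparisons, in the order given, were 0.17, 0.36, 0.2 and 0.13, against -0.02 to 0.0 over all transcripts.

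Of the 181 genes, 6 had a higher pre-mRNA in each of these 4 comparisons, which share libraries, or 3.31%, where 8.18% of all 6739 transcripts were higher in each: HNT1, HRB1, IWR1, and the uncharacterised YCL002C, YDR535C and YPR202W. IWR1 pre-mRNA was at 68.0, 50.5 and 63.9 FPKM in DE572AA-FLAG, 55.9, 54.6 and 67.7 FPKM in the strain labelled upf2Δ, 31.1, 35.1 and 33.1 FPKM in Upf1-FLAG, and 17.01, 15.9 and 14.9 FPKM in WT-C. The first pair of groups was above Upf1-FLAG, and this above WT-C. The log2 change of the pre-mRNA was 1.82 ± 0.11 in DE572AA-FLAG against WT-C (adjusted p = 1.61e-08, edgeR), 0.74 ± 0.11 in DE572AA-FLAG and 0.75 ± 0.11 in the strain labelled upf2Δ against Upf1-FLAG. The IWR1 mRNA entry differed by -0.15 ± 0.47 in DE572AA-FLAG against WT-C, which did not pass.

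HRB1 pre-mRNA was at 40.9, 37.7 and 41.3 FPKM in DE572AA-FLAG, 28.3, 32.7 and 43.8 FPKM in the strain labelled upf2Δ, 23.7, 22.3 and 22.1 FPKM in Upf1-FLAG and 14.1, 17.04 and 12.6 FPKM in WT-C. The groups followed the order of IWR1. Its call in the strain labelled upf2Δ against Upf1-FLAG was lost without Upf1-FLAG replicate 2, with an adjusted p of 0.0512 in edgeR. YDR535C pre-mRNA was at 9.64, 10.8 and 11 FPKM in DE572AA-FLAG, against 7.65, 6.70 and 7.01 FPKM in Upf1-FLAG and 3.05, 2.61 and 3.40 FPKM in WT-C. Its change against WT-C was 1.68 ± 0.15 (adjusted p = 8.39e-07, edgeR), whereas its call against Upf1-FLAG (0.42 ± 0.15) stood in only 1 of 6 fits that left out a library, the one without DE572AA-FLAG replicate 1. The calls of HNT1 in both comparisons against Upf1-FLAG were likewise lost in 4 and 5 of 6 such fits, and YCL002C lost both of its calls against Upf1-FLAG without Upf1-FLAG replicate 3, the first also without DE572AA-FLAG replicate 3. Its call in Upf1-FLAG against WT-C was lost without WT-C replicate 2 or 3. YPR202W lies in a Y' element, so its value is uncertain.

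SPT14, an enzyme of GPI anchor synthesis, had a pre-mRNA level of 15.7, 16.5 and 18.5 FPKM in DE572AA-FLAG and 18.0, 23.1 and 25.5 FPKM in the strain labelled upf2Δ, against 7.55, 3.97 and 10.4 FPKM in Upf1-FLAG. Neither group overlapped with Upf1-FLAG. The log2 change was 1.07 ± 0.34 in DE572AA-FLAG (adjusted p = 0.042, edgeR's quasi-likelihood test), a call kept in 1 of 6 fits without a library, that without Upf1-FLAG replicate 3. In the strain labelled upf2Δ it was 1.5 ± 0.34 (adjusted p = 0.0114, edgeR), a call kept in all 6. DBP2 pre-mRNA fell to 3.86, 4.64 and 3.40 FPKM in DE572AA-FLAG, against 7.29, 8.06 and 7.08 FPKM in WT-C (log2 change -1.03 ± 0.20, adjusted p = 0.000776, edgeR). Upf1-FLAG, at 5.54, 2.75 and 3.36 FPKM, was also below WT-C (-0.93 ± 0.20, adjusted p = 0.00358, edgeR), and DBP2 mRNA was lower too, by 0.55 ± 0.06 in DE572AA-FLAG on the log2 scale.

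Entries at 0 in every library of a group set apart a few more genes. HMRA1, the silent copy of the mating-type regulator a1, whose sequence it shares with the active copy, so that its counts are uncertain, had 0, 0 and 0 pre-mRNA counts in the strain labelled upf2Δ, against 8, 219 and 39 counts in Upf1-FLAG and 262, 194 and 216 counts in WT-C. Its mRNA entry was at 0 in the strain labelled upf2Δ as well. All 4 FLAG-Upf2 libraries also had 0 pre-mRNA counts, against 291 and 70 counts in WT-N with CHX, and both strains carry nmd2::HIS3. With a floor of 3 counts per library, HMRA1 pre-mRNA in the strain labelled upf2Δ was at least 60.4-fold below the WT-C mean. In FLAG-Upf2 with CHX it was at least 53.0-fold below the mean of WT-N with CHX. The meiotic genes SPO1 and GMC2, whose pre-mRNA was at 0 in DE572AA-FLAG, had 24 to 293 and 11 to 37 counts in WT-C. GMC2 pre-mRNA was also at 0 in every Upf1-FLAG library. It was at least 6.19-fold below the WT-C mean in DE572AA-FLAG and at least 6.73-fold below it in Upf1-FLAG.

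In the N experiment the largest change was in PTC7, which lies on chromosome VIII from 251101 to 252225 (R64), next to NMD2 at 252374 to 255756. In FLAG-Upf2 without CHX its mRNA was at 3823 and 5592 FPKM and its pre-mRNA at 3.49 and 4.05 FPKM, against 25.3 and 24.7 FPKM of mRNA and 21.2 and 27.3 FPKM of pre-mRNA in WT-N. With CHX the mRNA was at 4441 and 4810 FPKM and the pre-mRNA at 5.31 and 5.53 FPKM in FLAG-Upf2, against 29.2 and 19.5 FPKM of mRNA and 21.7 and 35.3 FPKM of pre-mRNA in WT-N. In FLAG-Upf1-Upf2-Upf3 the mRNA was at 746.0 and 854.7 FPKM and the pre-mRNA at 25.5 and 22.5 FPKM. The mRNA entry was thus high in each strain with a plasmid for Upf2, and in no other. The unspliced share was 0.0912% and 0.0724% in FLAG-Upf2 without CHX and 3.31% and 2.57% in FLAG-Upf1-Upf2-Upf3, against 42.6% to 64.4% in WT-N.

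The log2 change of the PTC7 ratio was -10.21 ± 0.49 in FLAG-Upf2 without CHX (adjusted p = 6.41e-08, edgeR's quasi-likelihood test), -9.94 ± 0.49 with CHX (adjusted p = 8.09e-08, edgeR) and -5.26 ± 0.44 in FLAG-Upf1-Upf2-Upf3 (adjusted p = 2.54e-05, edgeR), each also without any single library. With only FLAG-Upf1-Upf2-Upf3 and WT-N in the fit the last was -5.27 and missed the threshold (adjusted p = 0.17, edgeR). In the strain labelled upf2Δ both entries were low, at 10.7, 12.4 and 16.9 FPKM of pre-mRNA and 7.77, 6.50 and 8.33 FPKM of mRNA, against 20.3, 31.4 and 22.4 FPKM and 24.3, 14.4 and 17.1 FPKM in Upf1-FLAG. Neither entry overlapped between these groups, and the pre-mRNA level fell by 0.98 ± 0.20 on the log2 scale (adjusted p = 0.00404, edgeR). The part of the plasmids and of the deletion beside PTC7 in these values was not tested.

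**Figure D4:**
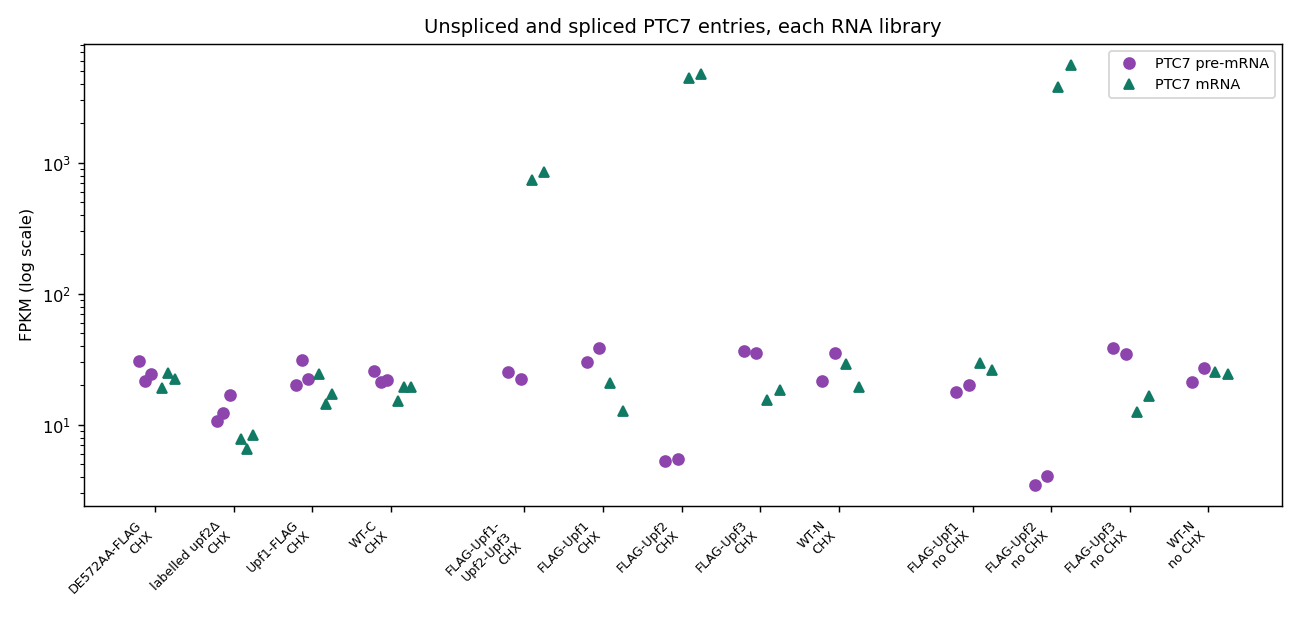
FPKM of the pre-mRNA and mRNA entries of PTC7 (y axis, log scale) in each of the 30 RNA libraries (points), by strain and treatment (x axis). The mRNA entry is at 746.0 to 5592 FPKM in the 6 libraries of strains with a plasmid for Upf2 and at 6.50 to 29.45 FPKM in the others, and the pre-mRNA entry is lowest in FLAG-Upf2.

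Few other genes passed in the N strains, of 165 tested in each. In FLAG-Upf2 without CHX, 1 rose and 1 fell (PTC7), where 1.09% of all 274 loci were called (0.73% higher and 0.365% lower). The riser was HNT1, at 9.09% and 9.82% in FLAG-Upf2 against 3.85% and 4.46% in WT-N (log2 change 1.27 ± 0.26, adjusted p = 0.0463, edgeR's quasi-likelihood test), and it did not pass in any fit without 1 library. The count in that comparison was 5 without WT-N noCHX replicate 1 and 1 without any of the other libraries. In FLAG-Upf1 with CHX, SEC14 fell to 21.7% and 22.4%, against 64.7% and 59.6% in WT-N (-2.54 ± 0.42, adjusted p = 0.0183, edgeR), where 0.365% of all loci were called. That call was lost without FLAG-Upf1 replicate 1 or either WT-N replicate, while 3 genes were called without FLAG-Upf1 replicate 2. PTC7 was the only call in FLAG-Upf2 with CHX and in FLAG-Upf1-Upf2-Upf3, where 0.365% and 1.09% of all loci were called (0.73% higher and 0.365% lower for the second).

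FLAG-Upf1 without CHX and FLAG-Upf3 with and without CHX had no gene called by edgeR, where 0.365%, 0.0% and 0.0% of all loci were called. The unadjusted p was under 0.05 for 13 genes in FLAG-Upf1. In FLAG-Upf3 it was under 0.05 for 24 genes with CHX, all of them higher, and for 25 without CHX, of which 24 were higher. The median log2 change of FLAG-Upf3 was 0.43 with CHX (127 of 165 positive) and 0.42 without CHX (121 positive), against 0.27 and 0.25 over all loci. limma on the log2 ratio called 6 genes in FLAG-Upf3 with CHX and 1 without, and none in FLAG-Upf1 without CHX. Without WT-N noCHX replicates 1 and 2 in turn, edgeR called 3 and 1 genes in FLAG-Upf1 and 4 and 2 in FLAG-Upf3 without CHX, and without WT-N CHX replicate 2 it called 1 in FLAG-Upf3 with CHX. The summed unspliced share was 20.7% and 21.0% in FLAG-Upf3 with CHX against 15.6% and 19.1% in WT-N, and 17.9% and 19.0% without CHX against 14.85% and 16.96%. FLAG-Upf3 was above WT-N in both, with a wide gap between the WT-N replicates.

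The ratio of some genes differed between the CHX and noCHX libraries. In WT-N, of 165 genes tested, 6 rose and 9 fell with CHX, where 23.4% of all 274 loci were called (20.1% higher and 3.28% lower) and 49 of 100 ribosomal protein genes rose with none falling. The risers were TMH18 (a mitochondrial protein), IWR1, RPP1B, HNT1, PFY1 and HRB1. The fallers were GCR1, NOG2, IMD4, YRA1, ECM33 and SUN4 (cell wall proteins), MPT5 (a Puf RNA-binding protein), STO1 (the large subunit of the nuclear cap-binding complex) and GLC7 (protein phosphatase 1). Of these 15 calls, 4 stood in every fit without 1 library, those of ECM33, GCR1, IMD4 and NOG2. Without WT-N CHX replicate 2 the count was 5, and without WT-N noCHX replicate 2 it was 8. With the replicate number, which all N groups share, as a block, HNT1 lost its call and the other 14 stood. The sample code that a CHX and a noCHX library share was not fitted as a block. With only the 2 WT-N groups in the fit the count was 0, and the adjusted p of ECM33, IMD4 and NOG2 was then 0.0905 (edgeR).

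IMD4 had an unspliced share of 4.10% and 4.93% with CHX against 8.48% and 8.63% without (log2 change -0.99 ± 0.15, adjusted p = 0.00103, edgeR's quasi-likelihood test). ECM33 had 5.28% and 5.63% with CHX against 9.71% and 12.2% without (-1.08 ± 0.18, adjusted p = 0.00158, edgeR). NOG2 had 95.7% and 96.0% with CHX against 98.0% and 98.1% without, and GCR1 72.0% and 70.3% against 92.3% and 86.0%. None of these 4 genes had overlapping groups. IWR1 had 39.9% and 48.9% with CHX against 25.2% and 30.9% without (1.04 ± 0.32, adjusted p = 0.0376, edgeR), a call lost without WT-N CHX replicate 2 or noCHX replicate 1.

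The CHX libraries of WT-N share no library with the C experiment. Of the 6 risers with CHX, 5 were also among the 13 risers in DE572AA-FLAG against WT-C (HNT1, HRB1, IWR1, PFY1 and RPP1B), which is 5 of 6 and 5 of 13. Over all loci, 20.1% were higher with CHX and 21.0% in DE572AA-FLAG against WT-C. The overlap over all loci was not counted, so these shares are not a result about these genes. YRA1 fell with CHX, to 10.9% and 13.5% against 16.9% and 19.2% without (-0.67 ± 0.15, adjusted p = 0.0103, edgeR's quasi-likelihood test), and rose in DE572AA-FLAG; the call with CHX was lost without WT-N CHX replicate 1 or noCHX replicate 2. GCR1 was lower in both. The effect of CHX on the strain differences was tested as an interaction of treatment with each of the 3 single-plasmid strains: of 165 genes, none was called in any of them by edgeR, where 0.0% of all loci were called, and 13 genes for Upf1, 3 for Upf2 and 3 for Upf3 had an unadjusted p under 0.05. The interaction was tested with edgeR alone, on 2 libraries per group. Its fit had no term for the sample code that CHX and noCHX libraries of a strain share, which limits this result.

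Ribosome footprints on the unspliced entries were few. They were counted in the C experiment as 27 to 32 nt fragments from all 80S ribosomes (total) and from 80S ribosomes pulled down with the FLAG tag (IP). Libraries held 213689 to 3020880 (total) and 275418 to 1419205 (IP) counts. Of the 186 genes, 50 had no pre-mRNA footprint in any library and 2, SUS1 and YPR202W, had one in every total library. In total 80S, 1.36%, 1.38% and 1.62% of the genes' footprints fell on pre-mRNA entries in DE572AA-FLAG, 1.56%, 1.75% and 1.71% in the strain labelled upf2Δ, 1.00%, 0.988% and 0.812% in Upf1-FLAG, and 0.124%, 0.533% and 0.44% in WT-C. The first pair of groups was above Upf1-FLAG, and this above WT-C, whose libraries were the shallowest. A footprint on an exon is divided between both entries, and in genes with a derived intron length the introns themselves account for a median of 1.06 to 2.45 counts per gene with a pre-mRNA footprint, depending on the library.

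In the IP libraries the share on pre-mRNA entries was 0.64%, 0.995% and 1.03% in DE572AA-FLAG, against 1.36%, 1.38% and 1.62% in its total 80S. It was 0.549%, 0.324% and 0.324% in the IP of the strain labelled upf2Δ, against 1.56%, 1.75% and 1.71% in its total 80S. In Upf1-FLAG it was 0.913%, 0.278% and 0.355% in the IP, against 1.00%, 0.988% and 0.812% in total 80S. IP and total overlapped in Upf1-FLAG, through IP replicate 1, the shallowest of the IP libraries, and not in the other strains. The IP libraries held 275418 to 1419205 counts, against 1294981 to 3020880 in total 80S of the same strains. The part of depth in these shares was not tested.

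**Figure D5:**
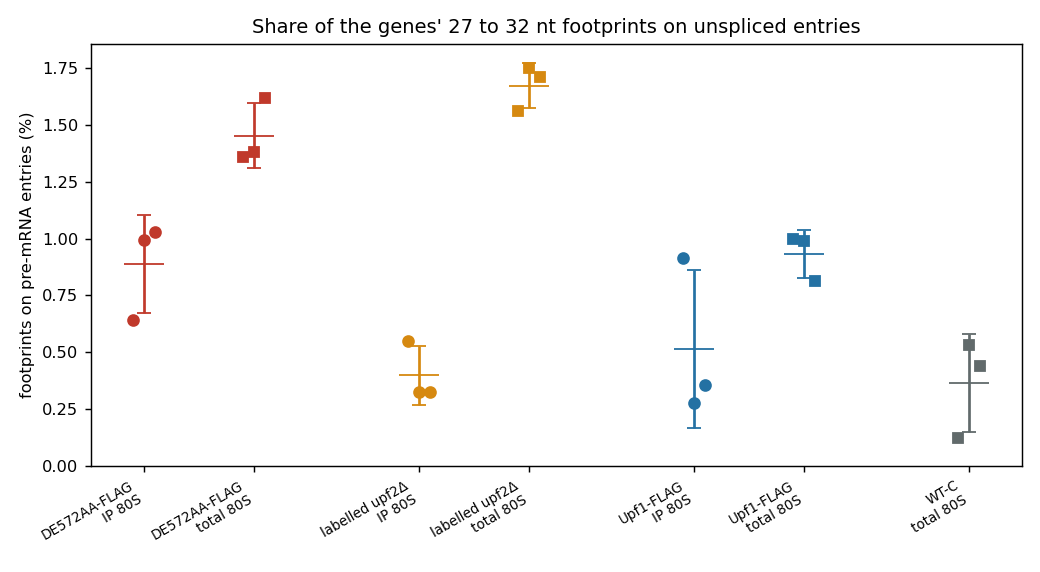
Percent of the 27 to 32 nt footprints of the 186 genes that fell on pre-mRNA entries (y axis) in each IP and total 80S library of the C experiment (points; bars give the mean and SD of 3 libraries), by strain (x axis). IP libraries are at 0.278% to 1.03%, and total 80S libraries of the same 3 strains at 0.812% to 1.75%.

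Per transcript, 27 pre-mRNA entries could be tested for IP against total 80S with edgeR's quasi-likelihood test. In DE572AA-FLAG 2 were lower in the IP and none higher, where 37% of all 5050 transcripts were called; 6 were lower in the strain labelled upf2Δ, where 45% of all were called, and 8 in Upf1-FLAG, where 44.8% of all were called. An entry that met the minimum count through the total libraries alone had to be lower in the IP, so these counts say nothing of a direction over the entries. Without Upf1-FLAG replicates 1 and 2 in turn its count was 4 and 3. With the lysate, which an IP and its total share, as a block, 4 were lower and 1 (ERV41, a COPII vesicle protein) was higher in DE572AA-FLAG, 11 were lower in the strain labelled upf2Δ and 12 in Upf1-FLAG, where 37.8%, 45.3% and 44.7% of all transcripts were called. Of these genes' mRNA entries, 54 were lower and 11 higher of 156 in the IP of DE572AA-FLAG, 54 and 19 in the strain labelled upf2Δ, and 64 and 17 in Upf1-FLAG. Of all 5050 transcripts, 1011 were lower and 859 higher in DE572AA-FLAG, 1158 and 1113 in the strain labelled upf2Δ, and 1158 and 1105 in Upf1-FLAG. YPR202W and the uncharacterised YJR112W-A were lower in all 3 strains. YPR202W had 33.8, 48.4 and 35.7 counts in the IP of DE572AA-FLAG against 216.6, 313.8 and 296.8 counts in total 80S (log2 change -2.58 ± 0.39, adjusted p = 9.35e-05, edgeR). YJR112W-A had 16, 22 and 14 counts in the IP against 31, 81 and 66 counts in total 80S (-1.53 ± 0.34, adjusted p = 0.000574, edgeR). Its call in Upf1-FLAG was lost without replicate 1 or 2.

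SUS1 had 0, 0 and 0 pre-mRNA counts in the IP of Upf1-FLAG against 20.4, 15.2 and 19.3 counts in total 80S, and 4, 0 and 0 counts in the IP of the strain labelled upf2Δ against 24.0, 31.6 and 21.4 counts. Both were called lower, also without any single lysate (adjusted p = 0.000389 in Upf1-FLAG and 0.00208 in the strain labelled upf2Δ, edgeR's quasi-likelihood test). A gene at or near 0 in the IP could meet the minimum count only through other libraries, which favoured a lower call. These calls and those of the genes below are thus no support for a direction. In DE572AA-FLAG SUS1 had 3.4, 6.6 and 2.8 counts in the IP against 12.3, 11 and 12.5 counts in total 80S, which did not pass. TAF14, a subunit of several transcription complexes, had 0 counts in every IP library of Upf1-FLAG against 76.1, 31.8 and 18.0 counts in total 80S and was called lower there. The calls of the kinase gene PHO85, the splicing factor gene YSF3, the cell wall gene SIM1 and GCR1 in Upf1-FLAG, each at 0 in the IP, were lost without 1 or more lysates. So were those of PHO85, YSF3 and SAR1, a COPII coat GTPase, in the strain labelled upf2Δ. In the ratio of pre-mRNA to mRNA among total 80S footprints, 36 genes could be tested. None was called by edgeR, or by limma with a pseudocount of 0.5, in DE572AA-FLAG or in the strain labelled upf2Δ against Upf1-FLAG, where 0.0% of 64 loci were called in either, and 2 and 5 genes had an unadjusted p under 0.05. Without DE572AA-FLAG replicate 1, 1 gene was called in DE572AA-FLAG. YRA1 had 2.4 and 2.3 pre-mRNA footprints in 1 total library each of DE572AA-FLAG and Upf1-FLAG and 0 in all others, which leaves its ratio untested here.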

How the data were processed

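The authors deposited expected counts per transcript, which RSEM estimates per isoform, and FPKM values for the same isoforms, as the file headers and the submitters' processing notes show. Bowtie, RSEM and cutadapt, and the builds R64 and sacCer3, are named in the submitters' processing notes, without versions. The genes and the gene groups were chosen with earlier results of these data known.

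Expected counts were rounded. The ratio of pre-mRNA to mRNA was tested as the interaction of entry and strain in edgeR 4.0.16 (R 4.3.3; quasi-likelihood, a term per library, minimum count of 10), over all groups of an experiment, and levels and IP against total 80S per transcript with TMM factors. Genes named were those called in DE572AA-FLAG against Upf1-FLAG and in FLAG-Upf1-Upf2-Upf3, those with the highest share in WT-C, all of the snoRNA and regulated-form groups, genes at 0 in a group, and the examples with the largest change per group; all others were named after their values were seen. Intron length is the difference of effective lengths (tolerance 3 nt). limma 3.58.1 (pseudocounts 0.5 and 5, and 0.05 FPKM) and DESeq2 1.42.0 were alternatives. Only the 27 to 32 nt footprints of the C experiment were used. Fits were tested on simulated data with a fixed dispersion and changes placed only in well-counted entries, which does not cover genes with few or uneven counts. Names came from a RefSeq table of R64 (183 of 186 matched). Counting limits cover counting error only and are set against the mean of the other group.

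The CHX and noCHX libraries of each N strain harvested both ways share a sample code in the labels. In WT-N the correlation of their deviations was 0.491. IP and total 80S libraries come from the same lysates; the correlation of their deviations was -0.0249 to 0.0577.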

Additional observations from a re-analysis of the deposited data

How the results depend on the processing

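Of the calls of single genes, 1523 repeats under other settings kept the direction and the call and 345 kept only the direction; none turned. Counts of called genes stayed within 1.5 times of the main count in 104 of 138 repeats that left out no library. In the others, with only the compared groups in the fit, no gene was called in the ratio of DE572AA-FLAG against Upf1-FLAG, Upf1-FLAG against WT-C, FLAG-Upf1 with CHX, FLAG-Upf1-Upf2-Upf3 or CHX against noCHX (0 each), 1 in FLAG-Upf2 without CHX and 1 in each ratio among total 80S footprints; for levels there were 9 in DE572AA-FLAG against Upf1-FLAG, 70 against WT-C and 41 in Upf1-FLAG against WT-C, and 4 in the IP of Upf1-FLAG. limma on the log2 ratio called 5 (pseudocount 0.5) and 4 (pseudocount 5) genes in Upf1-FLAG against WT-C, 1 in FLAG-Upf2 without CHX (0.5), 2 with CHX (5), 1 in FLAG-Upf3 without CHX at both pseudocounts, 6 and 5 with CHX, and 1 in total 80S of DE572AA-FLAG (5). limma on the FPKM ratio called 1 in DE572AA-FLAG against Upf1-FLAG, 4 in Upf1-FLAG against WT-C, 2 in FLAG-Upf2 with CHX, and 1 without and 5 with CHX in FLAG-Upf3. With pre-mRNA counts scaled to their intron part, a setting chosen after seeing the data, the level counts were 11 in DE572AA-FLAG against Upf1-FLAG and 16 in Upf1-FLAG against WT-C, and the IP counts 2 in Upf1-FLAG and 2 in the strain labelled upf2Δ, where 4 genes were left to test. A minimum count of 1 gave 5 in the IP of DE572AA-FLAG. The cause of these differences was not tested, beyond fewer samples or genes in the fit.

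Left out 1 at a time, libraries moved the count of ratio calls to 2 to 5 in DE572AA-FLAG against Upf1-FLAG, 10 to 19 against WT-C, 0 to 1 in the strain labelled upf2Δ, 0 to 2 in Upf1-FLAG against WT-C, 0 to 3 and 0 to 3 in FLAG-Upf1 without and with CHX, 1 to 5 in FLAG-Upf2 without CHX, 0 to 4 and 0 to 1 in FLAG-Upf3 without and with CHX, 5 to 16 for CHX against noCHX and 0 to 1 in total 80S of DE572AA-FLAG. Level counts ran from 12 to 24 in DE572AA-FLAG against Upf1-FLAG and 14 to 27 in Upf1-FLAG against WT-C, and IP counts from 3 to 6 in Upf1-FLAG. Where this left 1 library in a group of the N experiment, that library was assumed to vary like the other groups.

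The CHX and noCHX libraries of each N strain harvested both ways share a sample code, with a correlation of 0.491 in WT-N. The labels name no other pairing of RNA libraries. Correlations of same-numbered deviations were -0.251 to 0.245 in the C experiment and -0.55 to 0.491 in the N experiment. With a replicate block the ratio counts were 2 in DE572AA-FLAG against Upf1-FLAG, 17 against WT-C, 1 in FLAG-Upf2 without CHX and 14 for CHX against noCHX, and YRA1 lost its call against Upf1-FLAG. In the IP comparisons, whose libraries share a lysate, the block gave 5 calls in DE572AA-FLAG (4 lower and 1 higher), 11 in the strain labelled upf2Δ and 12 in Upf1-FLAG. Depth limits the footprints: 27 pre-mRNA entries could be tested for the IP.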
